A study of Mus musculus with 6 samples.

Results

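The fatty acid desaturases and elongases examined here are 10 enzymes of liver fatty acid remodelling, taken by name from the table of liver transcripts: the desaturases Scd1, Scd2, Fads1, Fads2 and Fads3, and the elongases Elovl1, Elovl2, Elovl3, Elovl5 and Elovl6. All 10 had a row among the 13273 genes of the table, and all 10 were among the 11346 genes tested. In ETOH-WT livers 5 of the 10 fell (Scd1, Fads1, Fads2, Elovl2 and Elovl5), none rose, and 5 did not pass the test. Of all genes tested, 2.67% were called lower and 3.97% higher in ETOH-WT livers. The calls of Fads2 and Elovl2 were lost when some single livers were left out. Scd1 was 17.9-fold lower in the ETOH-WT livers than in the PF-WT livers, and the other 4 that fell were 1.58-fold to 2.97-fold lower.

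RNA-seq was performed on the livers of 6 mice, 1 library each, 3 of them ETOH-WT and 3 PF-WT. The ETOH-WT mice were wild type C57Bl/6 females that received the Lieber–DeCarli liquid diet containing ethanol for 3 weeks, with the ethanol raised in steps from 1% to 6.4% v/v. The PF-WT mice were wild type C57Bl/6 females that were pair-fed the isocaloric control diet for the same 3 weeks. Both groups were 2 months old at the start, were kept 2 to a cage, had these first 3 days to get used to the liquid diet, and neither carried a transgene or a deletion. The labels carry a code that all 3 mice of a diet share and that differs between the diets, so whatever it marks and the diet cannot be told apart. The sources used here do not say which mice were cage mates.

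Fatty acids are made in the liver cytosol as saturated chains, and desaturases and elongases of the endoplasmic reticulum turn them into the monounsaturated, polyunsaturated and very long chains of triglycerides and membranes. Stearoyl-CoA desaturases put the first double bond into a saturated chain. The FADS enzymes add further double bonds to the essential fatty acids of the diet, and the ELOVL enzymes carry out the condensation that starts each round of elongation and sets which chains are lengthened. In mouse liver, Scd1, Fads1, Fads2, Elovl5 and Elovl6 are known targets of the transcription factor SREBP-1c, and Scd1 and Elovl6 also of ChREBP.

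The values were taken as FPKM, fragments counted per unit of transcript length and per library size, a unit inferred from the values. Levels of different genes are set side by side on that reading, with the transcript lengths and the scaling behind the values unknown. Each test is limma's on log2(FPKM + 1), and its p was adjusted over all 11346 genes tested and called at 0.05. A log2 fold change is ETOH-WT minus PF-WT on that scale, which understates the change of genes near 1 FPKM. Over all genes tested 6.64% were called, 3.97% higher and 2.67% lower in ETOH-WT livers, and the 5 lower members made up 50% of the 10. The values of the ETOH-WT and PF-WT livers did not overlap for 6 of the 10 members, all of them lower in ETOH-WT livers. Over all genes tested 29.1% did not overlap, 17.9% higher and 11.2% lower in ETOH-WT livers. The log2 fold change was negative for 8 members against 45.9% of all genes tested, its median was -0.81 over the members against 0.022 over all genes tested, and the unadjusted p was under 0.05 for 6 members against 23.7% of all genes tested. The members were chosen by name with results of these data known, so these counts describe them and are no independent evidence of a direction.

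**Figure D1:**
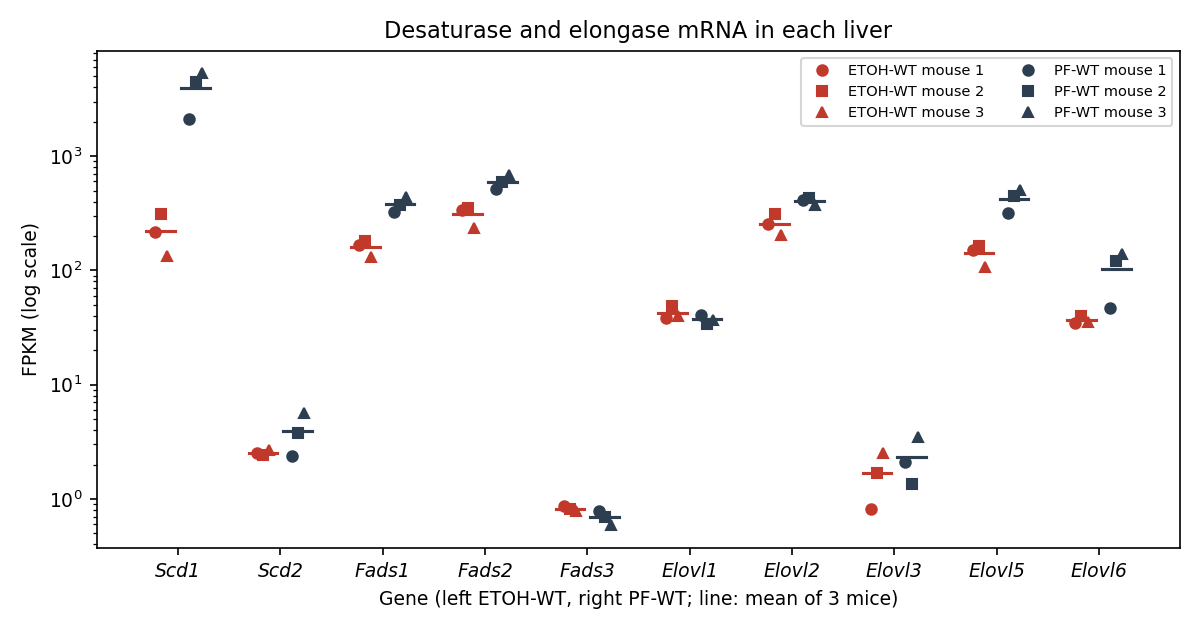
FPKM of the 10 desaturases and elongases (log scale) in each liver, with ETOH-WT mice in red on the left and PF-WT mice in dark blue on the right of each gene, 1 symbol per mouse and a line at the mean of 3 mice. Scd1 lies between 133 and 313 FPKM in ETOH-WT livers and between 2129 and 5301 FPKM in PF-WT livers, while Scd2, Fads3 and Elovl3 stay under 6 FPKM in every liver.

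Scd1, the main stearoyl-CoA desaturase of adult mouse liver, makes oleate and palmitoleate and lies on chromosome 19 (GRCm38, 44394451 to 44407709, minus strand). Scd1 was at 217, 313 and 133 FPKM in ETOH-WT mice 1, 2 and 3, against 2129, 4453 and 5301 FPKM in PF-WT mice 1, 2 and 3. Every ETOH-WT liver was below every PF-WT liver, and within the PF-WT mice the liver of mouse 1 was the lowest. The mean was 221 ± 90.2 FPKM in ETOH-WT livers and 3961 ± 1643 FPKM in PF-WT livers (SD, n = 3 each), a log2 fold change of -4.14 with a standard error of 0.39 and a limma adjusted p of 0.00237. Only 4 of the 11346 genes tested had a lower log2 fold change. Scd1 passed the test without any one of the 6 livers, with limma adjusted p from 0.00199 to 0.0137. A liver is a mixture of cells, and fewer cells of a type and less RNA per cell cannot be told apart in these data.

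Scd2, the isoform best known from brain and from the liver of newborn mice, lies 87586 bases from Scd1 on chromosome 19 (44293676 to 44306864, plus strand). It was at 2.52, 2.42 and 2.69 FPKM in ETOH-WT livers, against 2.36, 3.78 and 5.6 FPKM in PF-WT livers. The groups overlapped, because PF-WT mouse 1 lay below all 3 ETOH-WT mice. The log2 fold change of Scd2 was -0.42 (95% interval -0.92 to 0.09) with a limma adjusted p of 0.296. Without PF-WT mouse 1 it was -0.66, with a limma adjusted p of 0.0667, and without PF-WT mouse 3 it was -0.18, with 0.563.

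Scd1 and Scd2 are near copies over part of their coding sequence, which bears on how reads of 51 bases were assigned. In GENCODE vM21, 4.54% of the 51-base stretches of the Scd1 transcript and 3.89% of those of the Scd2 transcript also occur in another gene, mostly in each other or in Scd3. The longest run that both transcripts share has 147 bases, coding bases 523 to 669 of Scd1 and 532 to 678 of Scd2. It crosses from exon 4 into exon 5 of 6 in either gene. It is printed here with 15 coding bases on each side, with the shared run in capitals and the flanks in lower case, 5′ to 3′ along the mRNA. A read of 51 bases that lies inside it cannot be assigned to either gene by its own letters. The paper gives the reads as paired, so a mate outside the run may tell the genes apart. The printed stretch spans chr19:44400326-44401820 on the minus strand for Scd1 and chr19:44299687-44301260 on the plus strand for Scd2, intron included.
Scd1: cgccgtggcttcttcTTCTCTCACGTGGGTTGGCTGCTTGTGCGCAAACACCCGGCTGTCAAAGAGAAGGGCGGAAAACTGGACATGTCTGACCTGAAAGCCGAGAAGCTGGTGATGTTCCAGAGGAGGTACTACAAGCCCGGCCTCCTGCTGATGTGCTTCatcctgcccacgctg
Scd2: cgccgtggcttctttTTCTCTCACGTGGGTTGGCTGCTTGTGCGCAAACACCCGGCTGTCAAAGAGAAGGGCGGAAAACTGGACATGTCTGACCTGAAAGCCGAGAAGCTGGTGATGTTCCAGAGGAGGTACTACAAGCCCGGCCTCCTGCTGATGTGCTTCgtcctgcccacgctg
The sources used here do not say how reads from such runs were shared out, and the low Scd2 values, read beside an Scd1 of up to 5301 FPKM, are uncertain. Within a liver, Scd1 was 86.1, 129 and 49.2 times Scd2 in ETOH-WT mice and 902, 1177 and 946 times Scd2 in PF-WT mice.

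Fads2 and Fads1 carry out the early and the later desaturation step in making arachidonic and docosahexaenoic acid from essential fatty acids. The 3 FADS genes are neighbours on chromosome 19, with Fads3 at 10041548 to 10059671 (plus strand), Fads2 at 10064164 to 10101503 (minus strand) and Fads1 at 10182888 to 10196870 (plus strand). Only 4492 bases separate Fads3 from Fads2, and 81384 bases separate Fads2 from Fads1. Fads1 and Fads2 fell in ETOH-WT livers, and Fads3, which lies nearest to Fads2, did not pass the test.

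Fads1 was at 168, 180 and 131 FPKM in ETOH-WT livers, against 322, 372 and 438 FPKM in PF-WT livers. All ETOH-WT livers were below all PF-WT livers, and ETOH-WT mouse 3 was the lowest. The mean was 160 ± 25.6 FPKM in ETOH-WT livers and 377 ± 57.8 FPKM in PF-WT livers (SD, n = 3 each), 2.36-fold lower, with a log2 fold change of -1.24, a standard error of 0.15 and a limma adjusted p of 0.00676. Fads1 passed the test without any one of the 6 livers, with limma adjusted p from 0.00911 to 0.0355.

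Fads2, the first and usually limiting enzyme of this route, was at 340, 349 and 237 FPKM in ETOH-WT livers, against 511, 595 and 677 FPKM in PF-WT livers. Again no ETOH-WT liver reached a PF-WT liver, and ETOH-WT mouse 3 was the lowest. The mean was 309 ± 62.4 FPKM in ETOH-WT livers and 594 ± 83.3 FPKM in PF-WT livers (SD, n = 3 each), 1.92-fold lower, with a log2 fold change of -0.95, a standard error of 0.17 and a limma adjusted p of 0.0206. The call was lost without ETOH-WT mouse 3 (adjusted p = 0.0563), PF-WT mouse 2 (0.0853) or PF-WT mouse 3 (0.0501), where the log2 fold change stayed between -0.95 and -0.77.

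Fads3, which desaturates sphingoid bases rather than essential fatty acids, was at 0.863, 0.812 and 0.783 FPKM in ETOH-WT livers, against 0.791, 0.695 and 0.589 FPKM in PF-WT livers. The groups overlapped, with ETOH-WT mouse 3 just below PF-WT mouse 1. The log2 fold change was 0.11 (95% interval -0.13 to 0.34) with a limma adjusted p of 0.568, at a level where the added 1 FPKM dominates the scale.

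Elovl5 and Elovl2 lengthen polyunsaturated chains between the FADS steps, Elovl5 the shorter ones and Elovl2 the longer ones on the way to docosahexaenoic acid. Elovl5 (chromosome 9, 77917364 to 77984519, plus strand) was at 152, 165 and 107 FPKM in ETOH-WT livers, against 315, 447 and 501 FPKM in PF-WT livers. The groups did not overlap, with ETOH-WT mouse 3 and PF-WT mouse 1 the lowest of their diets. The mean of Elovl5 was 141.5 ± 30.3 FPKM in ETOH-WT livers and 421 ± 95.5 FPKM in PF-WT livers (SD, n = 3 each), 2.97-fold lower, with a log2 fold change of -1.56, a standard error of 0.21 and a limma adjusted p of 0.00798. Among the 5 elongases it was the one with the lowest log2 fold change, and it passed the test without any one of the 6 livers (limma adjusted p from 0.00724 to 0.0420).

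Elovl2 (chromosome 13, 41182495 to 41220405, minus strand) was at 254, 309 and 205 FPKM in ETOH-WT livers, against 410, 429 and 374 FPKM in PF-WT livers. There was no overlap, and the PF-WT livers lay close together. The mean was 256 ± 52.1 FPKM in ETOH-WT livers and 404 ± 28.1 FPKM in PF-WT livers (SD, n = 3 each), 1.58-fold lower, with a log2 fold change of -0.67, a standard error of 0.15 and a limma adjusted p of 0.0386. This was the weakest of the 5 calls. It held without ETOH-WT mouse 2 (adjusted p = 0.0170) and was lost without ETOH-WT mouse 1 (0.0813), ETOH-WT mouse 3 (0.109), PF-WT mouse 1 (0.0898), PF-WT mouse 2 (0.148) or PF-WT mouse 3 (0.0616).

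Elovl6 lengthens palmitate to stearate, the substrate of Scd1, and lies on chromosome 3 (129532355 to 129638495, plus strand). It was at 34.8, 39.6 and 35.5 FPKM in ETOH-WT livers, against 46.8, 122 and 139 FPKM in PF-WT livers. The groups did not overlap, but PF-WT mouse 1 lay nearer to the ETOH-WT livers than to the other PF-WT livers. The mean was 36.6 ± 2.57 FPKM in ETOH-WT livers and 102.5 ± 49.0 FPKM in PF-WT livers (SD, n = 3 each), with a log2 fold change of -1.32, a standard error of 0.35 and a limma adjusted p of 0.0662, so Elovl6 did not pass the test. Without PF-WT mouse 1 the log2 fold change was -1.80 and the limma adjusted p 0.00199, and without any one of the other 5 livers the adjusted p lay between 0.120 and 0.209. In the transcript of Elovl6, 3.91% of the 51-base stretches also occur elsewhere, mostly in Gm11295.

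Elovl1 and Elovl3 make saturated and monounsaturated very long chains, Elovl1 those of sphingolipids in most tissues. Elovl1 (chromosome 4, 118428093 to 118432953, plus strand) was at 38.0, 48.4 and 39.7 FPKM in ETOH-WT livers, against 40.8, 34.1 and 36.8 FPKM in PF-WT livers. The groups overlapped, and the log2 fold change was 0.17 (95% interval -0.10 to 0.44) with a limma adjusted p of 0.430. This interval leaves out a fall as large as the estimates for Elovl5 and Elovl2. Its exons overlap those of Cdc20 on the opposite strand, and the sources used here do not say whether the counting used strand.

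Elovl3, known in mouse liver for a daily rhythm and for higher levels in males, lies on chromosome 19 (46131897 to 46135307, plus strand), where its exons overlap those of Pitx3 on the opposite strand. It was at 0.815, 1.69 and 2.54 FPKM in ETOH-WT livers, against 2.10, 1.35 and 3.47 FPKM in PF-WT livers. The groups overlapped widely, and the SD was 51.4% of the mean in ETOH-WT livers and 46.7% in PF-WT livers. The log2 fold change was -0.30 (95% interval -0.97 to 0.36) with a limma adjusted p of 0.569. Among the 14 circadian clock genes listed, 12 were tested, and none of the 12 passed in either direction, with a median log2 fold change of -0.17. Of 5 male-biased liver genes tested, Cyp2d9 rose, at 68.5, 70.6 and 109 FPKM in ETOH-WT livers, against 20.7, 16.5 and 14.6 FPKM in PF-WT livers (log2 fold change 2.18, limma adjusted p 0.00181), and the other 4 did not pass the test. Without PF-WT mouse 3, 1 of these 4, Selenbp2, was called lower.

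**Figure D2:**
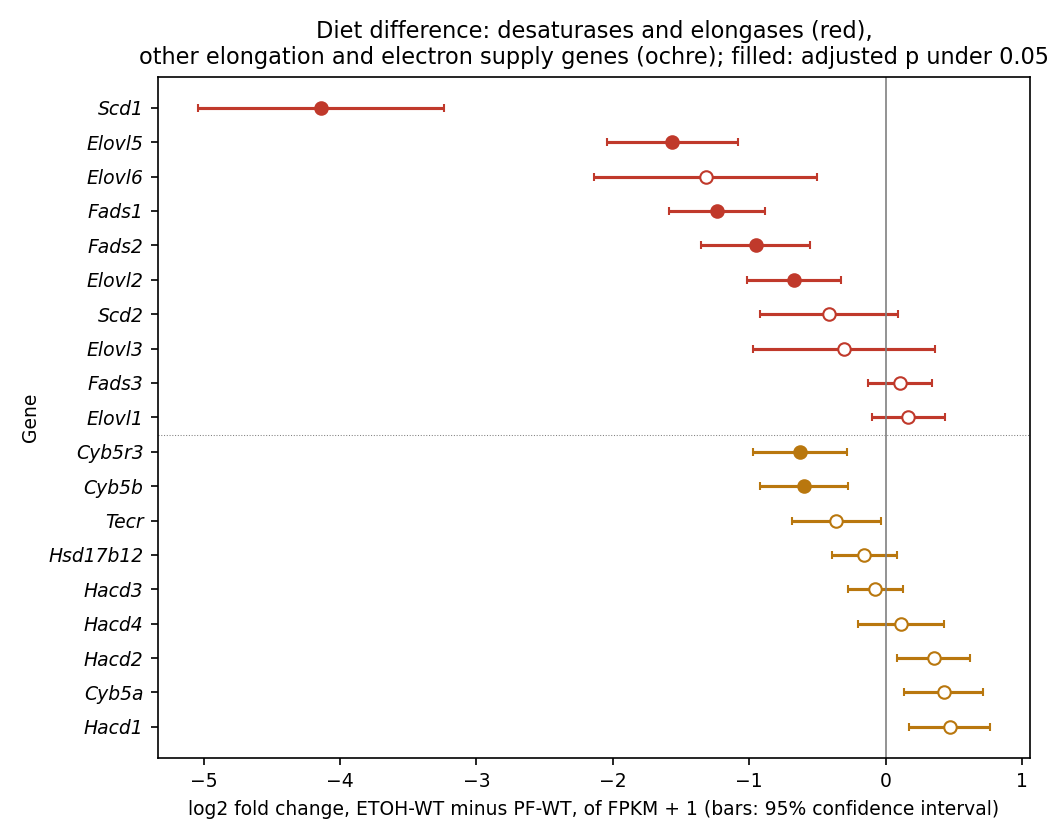
Log2 fold change of FPKM + 1, ETOH-WT minus PF-WT, with 95% confidence intervals from limma, for the 10 desaturases and elongases (red) and the 9 other genes of the elongation cycle and of electron supply (ochre), where filled symbols mark an adjusted p under 0.05. Scd1 stands at -4.14, the other filled red symbols lie between -1.56 and -0.67, and Fads3 and Elovl1 lie above 0 with intervals that include it.

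By level, the order of the members differed between the diets. In ETOH-WT livers the means ran from Fads2 (309 FPKM) over Elovl2 (256), Scd1 (221), Fads1 (160) and Elovl5 (141.5) to Elovl1 (42.1), Elovl6 (36.6), Scd2 (2.55), Elovl3 (1.68) and Fads3 (0.819). Each neighbour in the run from Fads2 to Elovl5 overlapped the next in range, as did Elovl1 and Elovl6, and Scd2, Elovl3 and Fads3. In PF-WT livers Scd1 (3961 FPKM) stood above Fads2 (594) without overlap. Elovl5 (421), Elovl2 (404) and Fads1 (377) followed and overlapped, and Elovl6 (102.5), Elovl1 (37.3), Scd2 (3.92), Elovl3 (2.31) and Fads3 (0.692) came after, of which Scd2 and Elovl3 overlapped. Scd1 made up 18.0%, 22.2% and 14.8% of the summed FPKM of the 10 members in ETOH-WT mice 1, 2 and 3, against 56.3%, 69.0% and 70.9% in PF-WT mice 1, 2 and 3.

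The summed FPKM of the 5 desaturases was 693 ± 174 in ETOH-WT livers and 4937 ± 1780 in PF-WT livers, 7.13-fold lower, and that of the 5 elongases 478 ± 86.8 in ETOH-WT livers and 967 ± 132 in PF-WT livers, 2.02-fold lower (SD, n = 3 each). Neither sum overlapped between the diets. With Scd1 left out, the 9 other members summed to 991, 1097 and 762 FPKM in ETOH-WT livers, against 1651, 2004 and 2174 FPKM in PF-WT livers, 2.05-fold lower.

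Ratios of 2 members within the same liver do not depend on how a library was scaled, and 7 were computed. The smallest p of an exact two-sided permutation test is 0.1 with 3 livers on either side, and no ratio could pass 0.05. Scd1 over Scd2 averaged 88.1 ± 39.96 in ETOH-WT livers and 1008 ± 148 in PF-WT livers (SD, n = 3 each), without overlap. Scd1 over Elovl6, product enzyme over the enzyme that makes its substrate, was 6.24, 7.91 and 3.74 in ETOH-WT livers, against 45.4, 36.6 and 38.1 in PF-WT livers, so the difference in Scd1 was larger than that in Elovl6 in each comparison of an ETOH-WT with a PF-WT liver.

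Elovl2 over Elovl5 was 1.67, 1.87 and 1.91 in ETOH-WT livers, against 1.30, 0.959 and 0.746 in PF-WT livers, higher in every ETOH-WT liver. Elovl5 over Fads2 was 0.448, 0.472 and 0.453 in ETOH-WT livers, against 0.617, 0.752 and 0.739 in PF-WT livers. Fads1 over Fads2 was 0.495, 0.515 and 0.553 in ETOH-WT livers, against 0.631, 0.626 and 0.646 in PF-WT livers, a narrow difference that did not overlap either. Each of these 5 ratios reached the smallest p the exact test allows, 0.1, or 0.14 after Benjamini-Hochberg adjustment over the 7. Elovl6 over Elovl5 (0.266 ± 0.056 in ETOH-WT and 0.233 ± 0.073 in PF-WT livers, exact permutation p = 0.6, n = 3 each) and Elovl3 over Elovl1 (0.040 ± 0.022 in ETOH-WT and 0.062 ± 0.029 in PF-WT livers, exact permutation p = 0.4, n = 3 each) overlapped. Without PF-WT mouse 1 the log2 difference of Elovl6 over Elovl5 changed sign, with 0.23 over all livers and -0.066 without it.

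**Figure D3:**
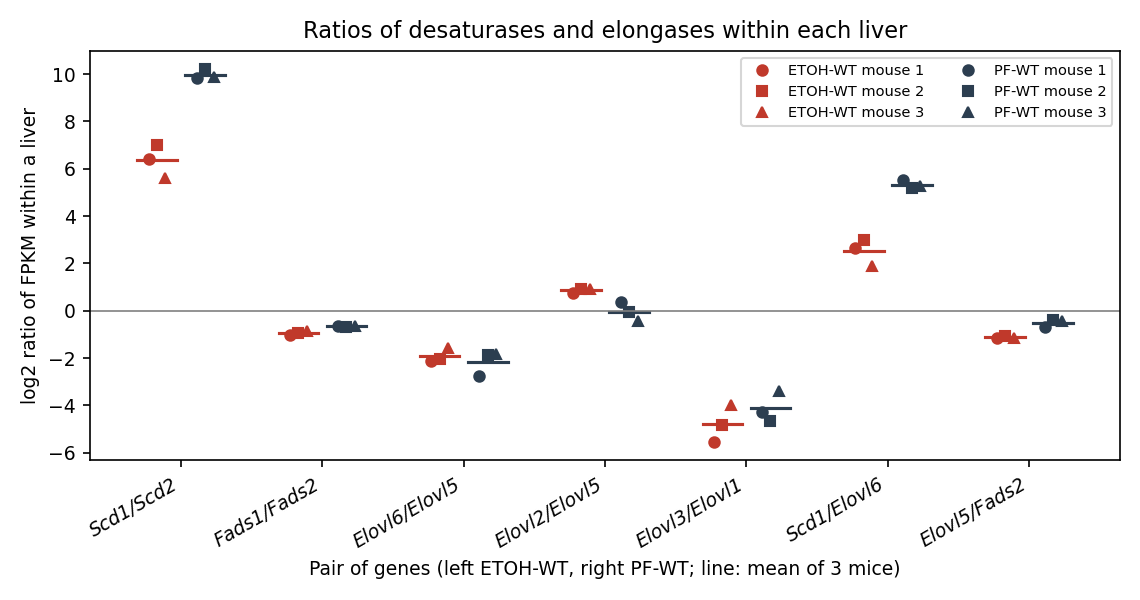
Log2 ratio of the FPKM of 2 members within each liver for the 7 pairs, with ETOH-WT mice in red on the left and PF-WT mice in dark blue on the right of each pair, 1 symbol per mouse and a line at the mean of 3 mice. The groups are apart for 5 pairs, with Scd1/Scd2 between 49.2 and 129 in ETOH-WT livers and between 902 and 1177 in PF-WT livers before the log, and they overlap for Elovl6/Elovl5 and Elovl3/Elovl1.

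Within a diet, the members that fell tended to be lowest in the same liver. ETOH-WT mouse 3 was the lowest ETOH-WT liver for 5 of the 5, where it was the lowest for 33.1% of all genes tested. PF-WT mouse 1 was the lowest PF-WT liver for 4 of the 5, Elovl2 excepted, where it was the lowest for 26.2% of all genes tested. Relative to the PF-WT mean, log2(FPKM + 1) of Scd1 was -4.08, -3.56 and -4.79 in ETOH-WT mice 1, 2 and 3, against -0.79, 0.27 and 0.52 in PF-WT mice 1, 2 and 3. Genes of 1 liver share its library, so these counts are no replicates.

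**Figure D4:**
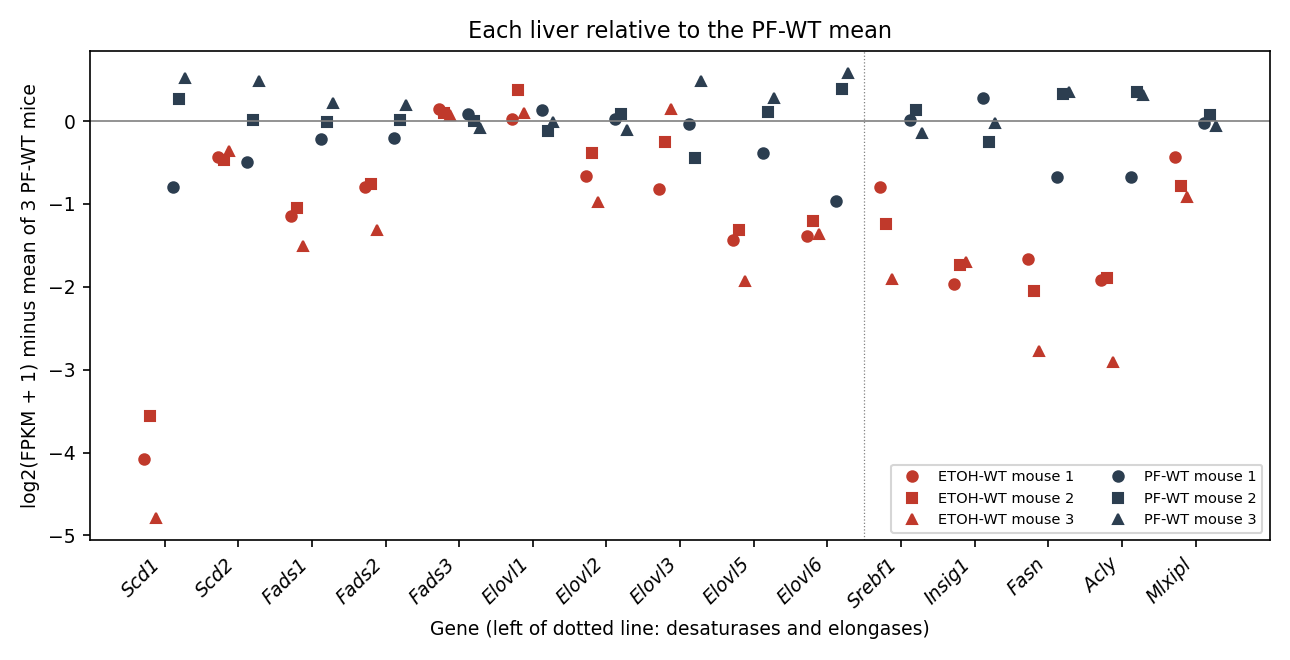
Log2(FPKM + 1) of each liver minus the mean of the 3 PF-WT livers, for the 10 desaturases and elongases and, right of the dotted line, for Srebf1, Insig1, Fasn, Acly and Mlxipl, with ETOH-WT mice in red on the left and PF-WT mice in dark blue on the right of each gene. ETOH-WT mouse 3 (triangle) is the lowest liver for Scd1 at -4.79, and PF-WT mouse 1 (circle) lies below the other PF-WT livers for Scd1 at -0.79 but above them for Insig1.

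The promoters of the members given by RefSeq (GRCm38.p6, 250 bases before to 50 bases after the start site) covered 6 of the 10 genes with 8 windows, namely Elovl1, Elovl2, Elovl5, Elovl6, Fads2 and Fads3. Both strands were searched for the SRE TCACNCCAC, to which SREBP binds, the CCAAT box CCAAT and the GC box GGGCGG, which often stand beside it, the E box CACGTG, and the nuclear receptor repeats DR1 and DR4. The GC box was in 5 of the 8 windows against 35.7% of all 32851 windows, the CCAAT box in 3 of 8 against 37.4%, and the E box in 1 of 8 against 7.15%. The SRE (1.24% of all windows), DR1 (0.0396%) and DR4 (0.0152%) letters were in none of the 8. Printed are the 250 bases before a start site of 2 elongases that fell, Elovl5 and Elovl2, and of Elovl1, which did not pass the test, so that their letters can be set side by side, with every match in capitals, 5′ to 3′ along the gene.
Elovl5, chr9:77917115-77917364, plus strand: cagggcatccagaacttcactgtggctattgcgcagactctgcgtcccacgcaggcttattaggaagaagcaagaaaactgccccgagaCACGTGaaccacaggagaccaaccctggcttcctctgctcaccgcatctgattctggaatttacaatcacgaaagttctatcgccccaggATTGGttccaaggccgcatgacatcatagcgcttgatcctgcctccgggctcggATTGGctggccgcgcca
Elovl2, chr13:41220404-41220653, minus strand: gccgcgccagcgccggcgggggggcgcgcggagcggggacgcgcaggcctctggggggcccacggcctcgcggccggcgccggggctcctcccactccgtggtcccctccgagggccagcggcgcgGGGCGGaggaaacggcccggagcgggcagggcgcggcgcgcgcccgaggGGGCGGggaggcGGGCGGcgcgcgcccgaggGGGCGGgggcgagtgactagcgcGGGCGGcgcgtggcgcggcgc
Elovl1, chr4:118427843-118428092, plus strand: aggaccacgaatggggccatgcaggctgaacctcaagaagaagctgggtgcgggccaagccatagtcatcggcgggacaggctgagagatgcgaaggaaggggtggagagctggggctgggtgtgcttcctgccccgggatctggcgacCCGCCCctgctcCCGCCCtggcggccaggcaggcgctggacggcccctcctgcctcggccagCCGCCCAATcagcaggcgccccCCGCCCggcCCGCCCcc
In Elovl5 the capitals are an E box that begins 161 bases before the start site and CCAAT boxes on the opposite strand at 71 and 17 bases before it. In Elovl2 they are 5 GC boxes, and in Elovl1 they are 5 GC boxes on the opposite strand, of which the one 39 bases before the start site overlaps a CCAAT box. RefSeq gives a second window for Elovl2, in which none of the motifs was found, and for Elovl1, which holds 2 GC boxes on the strand of the gene, and neither is printed. A match is a description of the letters and not of binding.

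Each round of elongation is completed by Hsd17b12, the HACD dehydratases and Tecr, while cytochrome b5 and its reductase hand electrons to the desaturases. Of the 9 genes of this list, 2 fell, none rose and 7 did not pass the test, with a median log2 fold change of -0.08. Cyb5r3, the cytochrome b5 reductase, was at 131, 172 and 124 FPKM in ETOH-WT livers, against 187, 228 and 241 FPKM in PF-WT livers (log2 fold change -0.62, limma adjusted p 0.0477). Cyb5b, the cytochrome b5 of the outer mitochondrial membrane, was at 109, 138 and 130 FPKM in ETOH-WT livers, against 168, 177 and 228 FPKM in PF-WT livers (log2 fold change -0.60, limma adjusted p 0.0461). Both calls were close to the threshold. Cyb5b lost its call without any one of the 6 livers (adjusted p 0.0534 to 0.128), and Cyb5r3 without ETOH-WT mouse 1 (0.109), ETOH-WT mouse 3 (0.159), PF-WT mouse 2 (0.173) or PF-WT mouse 3 (0.11). Cyb5b and Cyb5r3 also lost their calls with median-ratio scaling of the libraries (0.0660 and 0.0589), without the filter on low values (0.0517 and 0.0539) and without the variance trend (0.0544 and 0.0557).

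Cyb5a, the cytochrome b5 of the endoplasmic reticulum that serves the desaturases, was at 1128, 1131 and 1361 FPKM in ETOH-WT livers, against 909, 801 and 984 FPKM in PF-WT livers. Its groups did not overlap, with ETOH-WT livers the higher ones, and it did not pass the test (log2 fold change 0.43, limma adjusted p 0.0867). Hsd17b12, which acts in the second step of every round, had a log2 fold change of -0.16 (95% interval -0.39 to 0.08) and a limma adjusted p of 0.401, and Tecr, which acts in the last step, -0.36 (-0.69 to -0.04) and 0.172. Of the other desaturases and elongases listed, Fads6 and Degs1 were tested and did not pass. Elovl7 averaged 0.198 FPKM in ETOH-WT livers and 0.131 FPKM in PF-WT livers and was left out of the test as too low. For Elovl4, Scd3, Scd4 and Degs2 no row was found under these names.

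De novo synthesis supplies the saturated chains on which Scd1 and Elovl6 act. Of its 8 genes listed, 7 fell and none rose in ETOH-WT livers, with a median log2 fold change of -1.99, and the remaining gene, Slc25a1, named after its values were seen, had a log2 fold change of -0.56 and a limma adjusted p of 0.0943. Fasn, the fatty acid synthase, was at 158, 120 and 72.8 FPKM in ETOH-WT livers, against 314, 630 and 640 FPKM in PF-WT livers (log2 fold change -2.16, limma adjusted p 0.0131). Acly and Acss2, which make acetyl-CoA, had log2 fold changes of -2.24 and -2.68, and Acacb and Acaca, the acetyl-CoA carboxylases, of -2.23 and -0.70. PF-WT mouse 1 was the lowest PF-WT liver for all 8 genes, as it was for Scd1, Fads1, Fads2 and Elovl5. Without PF-WT mouse 2 the number that fell was 1, with adjusted p of 0.0589 for Fasn and 0.0530 for Acly, and without ETOH-WT mouse 3 it was 3. Acacb passed without any one of the 6 livers. The call of Acaca (limma adjusted p 0.0425) held without PF-WT mouse 1 (0.0115) and was lost without any one of the other 5 livers (0.0625 to 0.161) and with median-ratio scaling of the libraries (0.0528).

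Among 12 genes that regulate desaturase and elongase transcription, 5 fell, 1 rose and 6 did not pass the test. Insig1, an SREBP target that holds SREBP in the endoplasmic reticulum, was at 88.8, 104 and 107 FPKM in ETOH-WT livers, against 426, 293 and 344 FPKM in PF-WT livers. The groups did not overlap, and PF-WT mouse 1 was the highest liver for Insig1 while it was the lowest PF-WT liver for Scd1. The log2 fold change of Insig1 was -1.80 with a standard error of 0.15 and a limma adjusted p of 0.00121, and it passed without any one of the 6 livers. Insig2, the second Insig gene, was at 83.2, 158 and 80.2 FPKM in ETOH-WT livers, against 109, 102 and 126 FPKM in PF-WT livers, which overlapped (limma adjusted p 0.782).

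Srebf1, which encodes SREBP-1, was at 106, 77.6 and 48.9 FPKM in ETOH-WT livers, against 187, 204 and 168 FPKM in PF-WT livers. There was no overlap for Srebf1, and the 3 PF-WT livers lay close together, mouse 1 between the other two. The log2 fold change of Srebf1 was -1.31 with a limma adjusted p of 0.0227, lost without PF-WT mouse 1 (0.0568) or PF-WT mouse 2 (0.0917). Mlxipl, which encodes ChREBP, was at 121, 94.2 and 86.0 FPKM in ETOH-WT livers, against 161, 172 and 157 FPKM in PF-WT livers (log2 fold change -0.71, limma adjusted p 0.0208), lost without ETOH-WT mouse 3 (0.0769) or PF-WT mouse 2 (0.0934). Nr1h3, which encodes LXRα, had a log2 fold change of -0.03 (95% interval -0.23 to 0.16, limma adjusted p 0.859).

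The other 2 regulators that fell were Mlx, the partner of ChREBP, and Scap, the escort of SREBP, both named after their values were seen, with log2 fold changes of -0.50 and -0.54. Pparg rose, at 9.92, 13.6 and 13.3 FPKM in ETOH-WT livers, against 5.63, 7.31 and 6.84 FPKM in PF-WT livers (log2 fold change 0.80, limma adjusted p 0.0202), lost without ETOH-WT mouse 3 (0.0811), PF-WT mouse 1 (0.0503) or PF-WT mouse 2 (0.0589). The number of regulators that fell was 3 without ETOH-WT mouse 1, ETOH-WT mouse 3 or PF-WT mouse 3, 2 without PF-WT mouse 1, and it was 1 once PF-WT mouse 2 was left out.

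The last step to docosahexaenoic acid takes place in peroxisomes, and of its 5 genes listed 2 rose and none fell. Hsd17b4 was at 229, 211 and 212 FPKM in ETOH-WT livers, against 156, 152 and 167 FPKM in PF-WT livers (log2 fold change 0.45, limma adjusted p 0.0227), and Acaa1a had a log2 fold change of 0.45 and a limma adjusted p of 0.0299. Neither call held without ETOH-WT mouse 1, ETOH-WT mouse 3 or PF-WT mouse 2, nor that of Hsd17b4 without PF-WT mouse 1 and that of Acaa1a without PF-WT mouse 3, with adjusted p between 0.0554 and 0.134. Both calls were also lost with median-ratio scaling of the libraries (0.0503 for Hsd17b4 and 0.0542 for Acaa1a), and that of Acaa1a with quantile normalization (0.0580).

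Of 6 genes that activate, incorporate or carry polyunsaturated fatty acids, 2 fell and 1 rose. Acsl3, an acyl-CoA synthetase, was at 12.8, 18.4 and 14.7 FPKM in ETOH-WT livers, against 31.5, 30.4 and 37.2 FPKM in PF-WT livers (log2 fold change -1.07, limma adjusted p 0.00767). Agpat3, an acyltransferase of phospholipid synthesis, was at 140, 145 and 129 FPKM in ETOH-WT livers, against 80.3, 79.7 and 89.6 FPKM in PF-WT livers (log2 fold change 0.72, limma adjusted p 0.00688). The groups did not overlap for either gene, and both passed without any one of the 6 livers. Acsl4, the synthetase that prefers arachidonic acid, had a log2 fold change of -0.63 and a limma adjusted p of 0.0313, lost without ETOH-WT mouse 1, ETOH-WT mouse 3, PF-WT mouse 2 or PF-WT mouse 3 (0.0742 to 0.129).

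The genes whose profile over the 6 livers was most like that of Scd1, by the root mean square difference of centred log2(FPKM + 1) values, were Chrna4 (0.24), Pnpla3 (0.42), Fabp5 (0.58), A1bg (0.64) and Ugt1a5 (0.70). Pnpla3, a lipase and acyltransferase of lipid droplets, was at 2.06, 1.04 and 0.371 FPKM in ETOH-WT livers, against 31.6, 45.1 and 42.6 FPKM in PF-WT livers. Chrna4, a nicotinic receptor subunit, was at 0.254, 1.32 and 0.158 FPKM in ETOH-WT livers, against 17, 35.5 and 30.1 FPKM in PF-WT livers. Like Scd1, both were lowest in mouse 3 among ETOH-WT livers and in mouse 1 among PF-WT livers. The choice by profile over these same livers favours such a shared order, so it is no separate result. Fabp5, a fatty acid binding protein, and A1bg differed in that their lowest PF-WT liver was mouse 3. Ugt1a5 differed in that its lowest ETOH-WT liver was mouse 1. Chrna4, Pnpla3 and A1bg lay below 1 FPKM in some ETOH-WT livers, where the added 1 FPKM understates the change. With a pseudocount of 0.1 the log2 fold change was -5.71 for Chrna4 and -5.51 for A1bg, against -4.15 for Scd1. The likeness to Scd1 was not computed with that pseudocount.

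**Figure D5:**
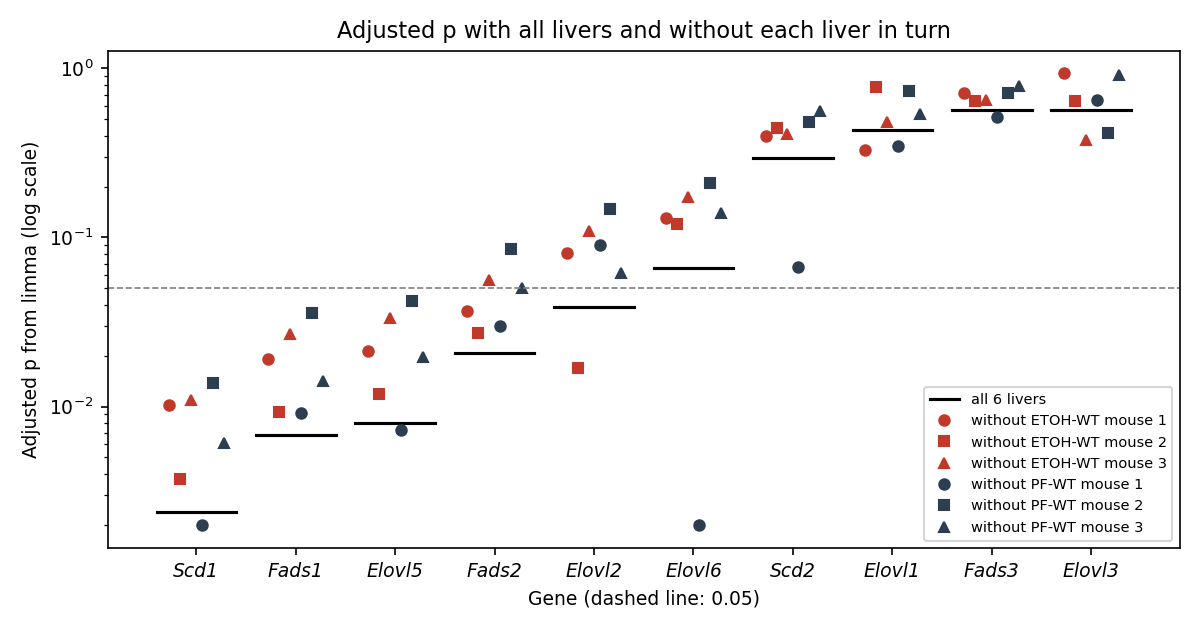
Limma adjusted p (log scale) of each desaturase and elongase with all 6 livers (black line) and without each liver in turn (red for an ETOH-WT, dark blue for a PF-WT mouse left out), with the threshold of 0.05 dashed. Scd1, Fads1 and Elovl5 stay under 0.05 throughout, Fads2 and Elovl2 cross it, and Elovl6 is under it only without PF-WT mouse 1, at 0.00199.

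The 6 libraries summed to 567808 to 625003 FPKM, and their read depth is not known, since the table gives no counts and its low values were not found to be whole multiples of a common step. Correlations of log2 values across genes were 0.984 to 0.992 within a diet and 0.973 to 0.979 between the diets. ETOH-WT mouse 1 had no row at 0, against 86 to 163 rows in each of the other 5 libraries. No marker gene of the 9 cell types listed passed the test. The summed hepatocyte markers (7 of 8 in the table) ranged from 66164 to 72027 FPKM in ETOH-WT livers and from 73958 to 83656 FPKM in PF-WT livers, without overlap, and those of cholangiocytes (5 of 6) from 21.7 to 29.2 FPKM in ETOH-WT livers and from 31.8 to 38.8 FPKM in PF-WT livers. Either sum is mostly 1 gene, Alb (mean 49738 FPKM in ETOH-WT livers and 58090 FPKM in PF-WT livers) for hepatocytes and Spp1 for cholangiocytes. Of the 7 hepatocyte markers, Alb and Ttr did not overlap between the diets, while Apoa1, Apob, Serpina1a, Cps1 and Cyp2e1 did, and Apob, Serpina1a and Cyp2e1 had the higher mean in ETOH-WT livers. None of the markers in the table was at 0 in all livers, and the part of these sums in the results was not tested.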

How the data were processed

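The authors deposited 1 table of FPKM, 1 column per library, with gene names and GRCm38 coordinates. The unit is inferred from the values, and the sources used here do not name the program that made them. For their own pipeline the authors name STAR and HTSeq-count, and for their own test DESeq2. TopHat2 2.0.11, HTSeq 0.11.2 and 1.6.3, cutadapt and mm10 stand in the submitters' processing notes without role or order. The FPKM were used as deposited, as log2(FPKM + 1). Rows averaging 0.5 FPKM or more, 11346 in all, were fitted with limma 3.58.1 in R 4.3.3 (lmFit, eBayes with trend, diet only, 4 residual and 4 prior degrees of freedom), two-sided, with Benjamini-Hochberg adjustment over all of them. A repeated gene name took the row with the higher mean. Samples were grouped by their labels. The libraries are separate mice, though some may have shared a cage. Each limma p sets the diet difference against the spread between mice of a diet, which limma combines with a trend over all genes. The procedure was tested on simulated data. Ratios, sums and exact tests used Python 3.11.15, pandas 2.3.3 and scipy 1.17.1. Named genes were the 10 members, up to 4 called genes of each pathway list by size of change, a fixed set of regulators and enzymes, and the 5 genes nearest to Scd1 in profile. The members and lists were chosen with earlier results of these data known. Alternatives were other pseudocounts, filters and scalings, array weights, no variance trend, a replicate block and each library left out. Proteins of the members were not analysed here.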

Additional observations from a re-analysis of the deposited data

How the results depend on the processing

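The direction of all 10 desaturases and elongases held under every alternative except that of Elovl3, whose log2 fold change was 0.13 with array weights, no member was called higher under any, and Fads3 was not tested with a minimum mean of 1 FPKM. The number called lower was 3 to 5 with 1 mouse left out, being 3 without ETOH-WT mouse 3, PF-WT mouse 2 or PF-WT mouse 3, and 6 with array weights, which added Elovl6 (adjusted p 0.00727). Over all genes, 83 to 347 were called higher and 76 to 300 lower with 1 mouse left out, 1327 higher and 945 lower with array weights, and 329 higher and 332 lower with median-ratio scaling. The replicate numbers do not pair the mice by the labels, and the correlation of deviations between mice of the same number was -0.010, -0.016 and -0.034. With the number as a replicate block, 253 genes were called higher and 201 lower, and 4 members lower, without Fads2 (adjusted p 0.0530). With 1 mouse left out, the log2 fold change of Insig2 ran from -0.45 to 0.035 and that of Nr1h3 from -0.094 to 0.00021, and neither was called. The causes of these differences were not tested. With 3 mice per diet and no counts, differences the size of those of Scd2, Fads3, Elovl1 and Elovl3 could not be told from 0.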

Other observations

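The 8 genes of de novo fatty acid synthesis were lowest, among ETOH-WT livers, in mouse 3 for 6 genes and in mouse 1 for 2, and, among PF-WT livers, in mouse 1 for all 8. The 12 regulators did not share that order: among ETOH-WT livers 5 were lowest in mouse 1, 3 in mouse 2 and 4 in mouse 3, and among PF-WT livers 2 were lowest in mouse 1, 4 in mouse 2 and 6 in mouse 3. Over all genes tested, PF-WT mouse 3 was the lowest PF-WT liver for 48.6%.

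Mfsd2a, the transporter of lysophospholipids that carry docosahexaenoic acid, was at 160, 71.8 and 73.5 FPKM in ETOH-WT livers, against 66.7, 118 and 153 FPKM in PF-WT livers. Among PF-WT livers the order was the same as for Scd1, and among ETOH-WT livers it differed. The groups overlapped, and the log2 fold change was -0.17 with a limma adjusted p of 0.828. Mfsd2a was named after its values were seen.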
